A study of Mus musculus with 5 samples.

Results

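DNA methylation of mouse embryonic stem (ES) cells labelled Fbxl10 T/T was compared with that of WT ES cells, which are 2 of the 5 libraries of the series and were chosen by their genotype labels. Methylation was read by reduced representation bisulfite sequencing, in which the enzyme MspI cuts DNA at CCGG and bisulfite turns unmethylated cytosines into bases read as T, so that the share of reads still showing C at a CpG is its methylation level. Both libraries carry the strain label C57BL/6J, came from cells grown in serum with leukaemia inhibitory factor on inactivated mouse embryonic fibroblasts, and were made from DNA harvested at passage 17 after the feeder cells had been reduced by plating. The labels do not spell out the T allele or say whether a library came from 1 clone, and there was 1 library per genotype. No difference below therefore has a replicate check. A p by Fisher's exact test is about these libraries and not about the genotypes, and intervals (95%, Wilson) cover counting error only.

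FBXL10, also called KDM2B and encoded by Kdm2b, is a chromatin protein whose CXXC zinc finger binds DNA with unmethylated CpGs. It belongs to a variant form of Polycomb repressive complex 1 and helps bring that complex to CpG islands, the CpG-rich stretches at which many genes start. CpG islands are mostly free of methylation in ES cells, including those of developmental regulators that Polycomb complexes keep silent. The question of this comparison, as the series title states it, is about hypermethylation at genes bound by Polycomb and protection from it by FBXL10.

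CpGs were compared where both libraries had at least 10 reads and the CpG did not lie inside CCGG. These were 368305 CpGs on the autosomes and the X chromosome, with medians of 53 reads (WT) and 33 reads (Fbxl10 T/T). The methylated share of all reads there was 13.1% (13.06 to 13.08%) for WT, against 20.6% (20.57 to 20.61%) for Fbxl10 T/T. Cytosines outside CpGs, where a C can be methylation or failed conversion, read lower in Fbxl10 T/T: at those followed by A, 1.76% of reads showed C in WT and 0.938% in Fbxl10 T/T, at those followed by C 0.672% and 0.629%, and at those followed by T 0.636% and 0.457%. The higher CpG level in Fbxl10 T/T was thus measured beside a lower share of C outside CpGs.

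Genes were tied to the tables through sequence. Start regions of RefSeq (build GRCm38.p6, 250 bases before to 50 bases after a gene start) were searched in the bases that the 5-base contexts of the tables spell out, so that each start found has a position in mm9, the build of the tables. Of 32619 start regions, 9902 were found, belonging to 8789 genes. A promoter below is the stretch from 500 bases before to 500 bases after such a start, measured where at least 5 CpGs qualified. Its level is the mean over those CpGs. Of the genes, 7152 had a measured promoter, with a median of 19 CpGs, 1227 WT reads and 760.5 Fbxl10 T/T reads. These genes start at 7137 distinct positions. Where the first start of a gene was not found, another one was used. Of the genes named below, the start lies more than 1 kb inside the gene for Cbx7, Cdk6, Cdkn1a, Dlx1, Dnmt1, Dnmt3a, Ebf3, Fat4, Foxa2, Gata3, Gm36794, Hmx2, Hmx3, Hoxd10, Hoxd11, Igf2, Lhx3, Runx1, Runx3 and Wnt6, so their values are not those of the first promoter.

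The 6 sequences that follow are the 250 bases before the start of 3 genes whose promoter rose and of 3 whose promoter did not, and they are shown because both kinds are rich in CpG. They are RefSeq sequences of GRCm38.p6, written 5′ to 3′ on the strand of the gene, and capitals mark the CpGs measured in both libraries. Their positions in mm9 are chr7:138686227-138686476 (+ strand) for Hmx3, chr4:134708210-134708459 (+) for Runx3, chr4:125167690-125167939 (+) for Grik3, chr5:123439109-123439358 (- strand) for Kdm2b, chr8:125626000-125626249 (+) for Rpl13 and chr2:147871685-147871934 (-) for Foxa2. The starts of Hmx3, Runx3 and Foxa2 lie 1431, 31900 and 1021 bases downstream of the 5′ end of the gene, at another RefSeq start.
Hmx3: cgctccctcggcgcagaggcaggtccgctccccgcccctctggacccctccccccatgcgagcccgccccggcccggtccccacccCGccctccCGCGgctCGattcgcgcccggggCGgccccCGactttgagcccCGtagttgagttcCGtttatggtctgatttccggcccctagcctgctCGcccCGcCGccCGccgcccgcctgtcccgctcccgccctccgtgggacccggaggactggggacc
Runx3: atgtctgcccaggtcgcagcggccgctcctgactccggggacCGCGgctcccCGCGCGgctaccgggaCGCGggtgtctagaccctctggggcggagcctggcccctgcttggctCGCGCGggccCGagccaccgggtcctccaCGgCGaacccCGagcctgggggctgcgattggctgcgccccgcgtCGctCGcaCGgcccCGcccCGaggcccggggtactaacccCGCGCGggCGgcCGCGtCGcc
Grik3: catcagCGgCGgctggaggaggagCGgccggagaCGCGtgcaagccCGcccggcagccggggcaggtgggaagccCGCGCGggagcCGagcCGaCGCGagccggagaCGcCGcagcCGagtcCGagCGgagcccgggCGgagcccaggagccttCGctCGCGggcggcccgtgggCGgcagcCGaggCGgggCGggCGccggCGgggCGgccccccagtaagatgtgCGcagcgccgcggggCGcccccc
Kdm2b: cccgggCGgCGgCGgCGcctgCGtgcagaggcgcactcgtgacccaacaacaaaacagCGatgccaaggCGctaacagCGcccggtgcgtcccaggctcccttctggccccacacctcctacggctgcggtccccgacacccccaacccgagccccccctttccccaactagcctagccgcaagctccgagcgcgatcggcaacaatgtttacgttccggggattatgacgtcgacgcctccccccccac
Rpl13: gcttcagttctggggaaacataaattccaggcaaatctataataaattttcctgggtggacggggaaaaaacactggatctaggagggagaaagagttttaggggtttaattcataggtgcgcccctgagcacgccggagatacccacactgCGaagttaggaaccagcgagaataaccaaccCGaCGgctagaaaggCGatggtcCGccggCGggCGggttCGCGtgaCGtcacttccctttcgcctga
Foxa2: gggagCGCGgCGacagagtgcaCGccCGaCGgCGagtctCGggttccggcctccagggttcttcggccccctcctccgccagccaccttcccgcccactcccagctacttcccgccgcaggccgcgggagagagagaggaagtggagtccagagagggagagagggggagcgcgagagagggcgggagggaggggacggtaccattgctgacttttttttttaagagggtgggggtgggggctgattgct
In the stretch of Hmx3, which encodes a homeobox factor of the inner ear and hypothalamus, the 12 marked CpGs ran from 0 to 2.5% in WT and from 55.6 to 76.5% in Fbxl10 T/T. In that of Runx3, a Runt-domain factor of lymphocytes and sensory neurons, the 26 marked CpGs ran from 0 to 6.85% in WT and from 60.7 to 94.4% in Fbxl10 T/T. In that of Grik3, a kainate-type glutamate receptor subunit, the 31 marked CpGs ran from 0 to 3.77% and from 55.9 to 100%. At all 3 genes the levels of the libraries did not overlap at any marked CpG. These genes were picked among promoters that rose, so this describes the stretches shown and is no separate result. In the stretch of Kdm2b, the gene of FBXL10, the 8 marked CpGs ran from 0 to 10% in WT and from 0 to 17.2% in Fbxl10 T/T. In that of Rpl13, a protein of the large ribosomal subunit, the 10 marked CpGs ran from 0 to 1.27% and from 0 to 5.08%. In that of Foxa2, a forkhead factor of endoderm, the 8 marked CpGs ran from 0 to 2.04% in WT and were all 0 of 414 reads in Fbxl10 T/T. The levels of the libraries overlapped at these 3 genes, which were picked among promoters that did not rise.

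Gains at promoters were many and large, and losses were few. Of 7152 promoters, 1063 rose (14.9%) and 13 fell (0.182%), where a call needed the means to lie 20 percentage points or more apart and the summed reads to differ with an adjusted p below 0.05 by the two-sided form of Fisher's exact test (Benjamini-Hochberg over the 7152). The median promoter stood at 1.38% in WT and 1.43% in Fbxl10 T/T, and 5715 promoters (79.9%) differed by less than 5 points. The mean over promoters was 2.87% and 10.3%. With CpGs inside CCGG kept, 1217 of 7806 promoters rose and 34 fell. Most promoters thus kept their level and a minority went far up. A fall could be called only from a WT level of 20% or more, whereas 6833 of the 7152 promoters stood below 10%.

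**Figure D1:**
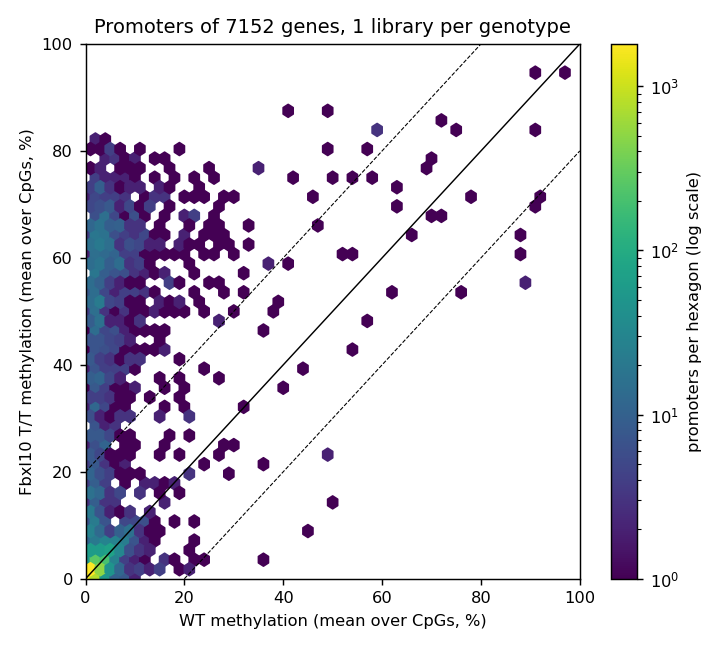
Methylation of 7152 promoters in WT (horizontal axis) and Fbxl10 T/T (vertical axis), each as the mean over CpGs in percent; the colour of a hexagon is its number of promoters on a log scale, the solid line marks equal levels and the dashed lines a difference of 20 points. Most promoters sit at the lower left corner, and a column of 881 risen promoters stands above the lowest WT levels, up to 82.8% in Fbxl10 T/T.

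Of 6833 promoters below 10% in WT, 881 rose (12.9%) and 5668 stayed within 5 points. The median of the risen ones was 3.13% in WT. In Fbxl10 T/T it was 56.1%, the quartiles were 43.6% and 63.8%, and 560 of them reached 50% or more. Gains were spread over the CpGs of a promoter: of the 18793 CpGs in these 881 promoters, 84.3% stood at 30% or more in Fbxl10 T/T, 2.46% below 10% and 1.57% at 90% or more. A CpG shared by overlapping promoters counts here once for each of them. The median SD over the CpGs of a risen promoter was 14.1 points. The highest of the 881 stood at 82.8%. Of 260 promoters at 10 to 30% in WT, 163 rose, from a median over the class of 14.7% to 50.9%. Of 43 promoters at 30 to 70% in WT, 19 rose and 5 fell, and of 16 at 70% or more, 7 fell and none of them rose.

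The list of homeobox genes outside the Hox clusters, which set the fate of neurons, limbs and organs, had 40 measured promoters. Of these, 33 rose (82.5%, against 14.9% of all promoters), with a median difference of 54.2 points against 0.0725 over all promoters. The gene lists used here were chosen with earlier results of these data known, so their counts are descriptions. In every list the counts cover only members with a measured promoter, here 40 of 104 genes. Nkx6-2, a regulator of ventral neural tube and oligodendrocytes (start at 146768696 on chromosome 7), rose from 4.10% (SD over 42 CpGs 4.67, 2884 reads) to 80.6% (SD 11.8, 1298 reads). Tlx3, a selector of excitatory spinal neurons (33103588 on chromosome 11), rose from 1.04% (SD over 13 CpGs 1.09, 627 reads) to 74.4% (SD 12.04, 344 reads). Hmx3 (138686477 on chromosome 7) rose from 1.55% (SD over 25 CpGs 2.42) to 74.5% (SD 11.4). Smaller gains in the same list included Pax6, the master regulator of the eye, from 4.55% to 62.5%, and Isl1, a motor neuron factor, from 4.67% to 25.6%. Members that did not pass the call were Dlx2 (2.02% and 18.6%), Lhx3 (24.3% and 40.2%), Gbx2 (2.43% and 11.3%), Hmx2 (1.54% and 6.79%), Pitx3 (0.147% and 0.132%), Lhx1 (0.270% and 0%) and Dlx1 (0.495% and 0.147%). Neighbouring paralogues could differ: on chromosome 7 the start of Hmx2, at 138697807, follows that of Hmx3 on the same strand. It lies 5536 bases inside the Hmx2 gene, and none of its 28 CpGs passed 20% in Fbxl10 T/T.

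**Figure D2:**
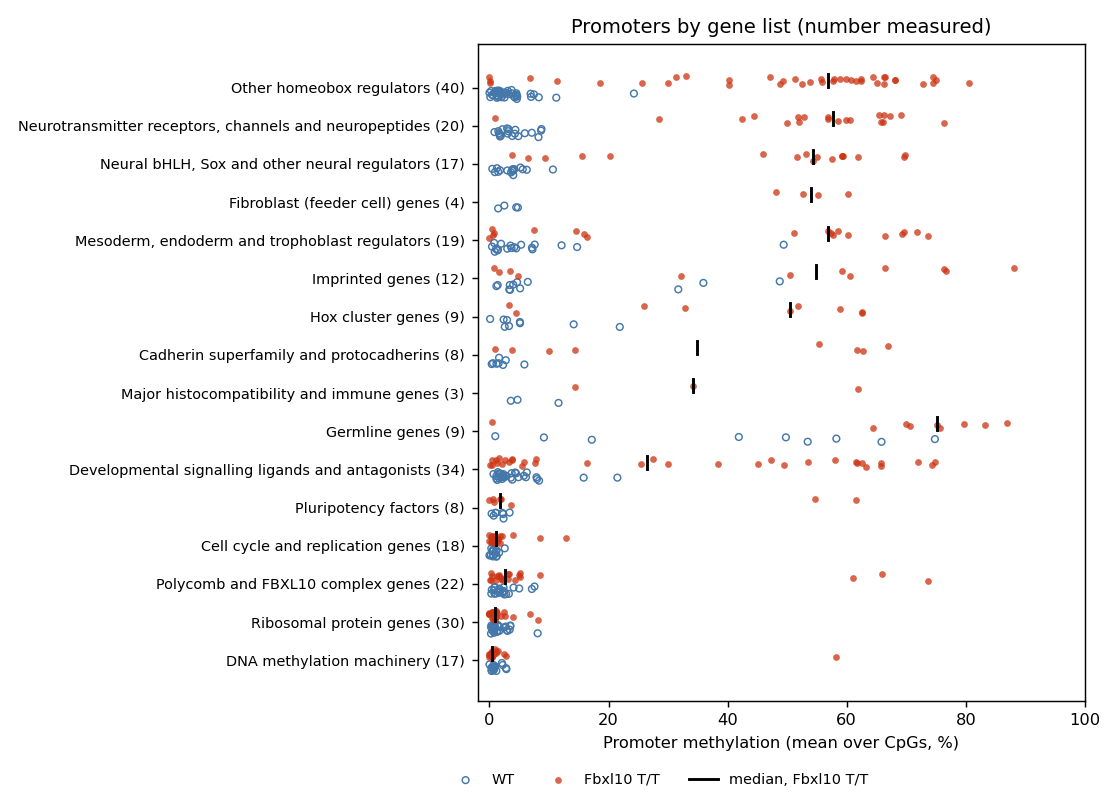
Promoter methylation in percent (mean over CpGs) of the measured members of each gene list, with the number measured in parentheses; open circles are WT, filled circles Fbxl10 T/T and black bars the median of Fbxl10 T/T. The homeobox list has its Fbxl10 T/T median at 56.8%, whereas the ribosomal protein list has it at 0.888%.

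Of the Hox genes, which give body segments their identity along the axis, 9 of 41 had a measured promoter. Of these, 7 rose (77.8%, against 14.9% of all promoters), with a median difference of 36.4 points. On chromosome 2, Hoxd1 (start at 74601037) rose from 3.28% to 62.5%, Hoxd11 (74520380) from 5.13% to 58.8% and Hoxd10 (74529948, a start 7618 bases inside the gene) from 2.38% to 51.8%. Hoxd12 (74513070) rose from 21.9% to 62.6%, Hoxd9 (74535820) from 5.11% to 32.8% and Hoxd13 (74506282) from 2.95% to 26.0%. The gains within the HoxD cluster thus ran from 23.03 to 59.2 points. On chromosome 6, Hoxa6 (52158671) rose from 14.1% to 50.6%, while Hoxa5 (52154586) stood at 2.57% and 4.39% and Hoxa13 (52210874) at 0.109% and 3.23%, neither of which passed the call. The starts of Hoxa5 and Hoxa6 are neighbours on the same strand.

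In a list of bHLH, Sox and other neural regulators, 12 of 17 measured promoters rose (70.6%, against 14.9% of all promoters). The median difference was 51.1 points. Ptf1a, a bHLH factor of pancreas and cerebellum, rose from 4.17% (SD over 9 CpGs 3.96) to 69.8% (SD 11.02). Skor1, a corepressor of spinal interneurons, rose from 4.02% (SD over 34 CpGs 9.98) to 69.6% (SD 14.2), and Sox21, a Sox factor of neural progenitors, from 1.78% (SD over 28 CpGs 4.20) to 61.8% (SD 12.4). The adjusted p was 3.05e-101 for Ptf1a and 2.01e-284 for Skor1 (Fisher's exact test). The other 5 were Onecut1 (3.81% and 15.6%), Zic5 (10.7% and 20.3%), Bcl11b (1.47% and 9.39%), Ebf3 (0.911% and 6.43%) and Atoh1 (0.474% and 3.82%), all higher in Fbxl10 T/T by less than the 20 points of a call.

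Among regulators of mesoderm, endoderm and trophoblast, 11 of 19 rose (57.9%, against 14.9% of all promoters) and 1 fell. The median difference was 49.2 points. Runx3, at a start inside the gene (134708460 on chromosome 4), rose from 1.42% (SD over 49 CpGs 2.23, 3498 reads) to 73.7% (SD 15.6, 1390 reads). Gata5, a zinc finger factor of heart and gut, rose from 3.54% to 71.8%, and Foxd3, a forkhead factor of neural crest and pluripotent cells, from 3.704% to 69.3%. Lyl1, a bHLH factor of blood cells, fell from 49.4% (SD over 7 CpGs 17.6, 458 reads) to 14.6% (SD 16.8, 339 reads; adjusted p = 8.45e-30, Fisher's exact test). Foxa2 (0.898% and 0%), Hhex (0.783% and 0.479%) and Foxf2 (0.431% and 0.756%) stood near 0 in both libraries. Gata3 (1.37% and 16.4%), Foxc1 (7.14% and 15.9%), Foxd2 (1.94% and 7.44%) and Runx1 (2.98% and 0.532%) did not pass the call either.

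Secreted signals and their antagonists were divided, with 16 of 34 promoters risen (47.1%, against 14.9% of all promoters) and a median difference of 10.6 points. Wnt5b, a non-canonical Wnt ligand (119494365 on chromosome 6), rose from 1.18% (SD over 34 CpGs 1.29) to 72.1% (SD 12.6). Wnt2b rose from 5.77% to 74.8%, and Bmp8b, a bone morphogenetic protein of germ cell and fat biology, from 7.99% to 74.3%. Other ligands of the same families stood within 2 points of WT: Wnt6 (1.66% and 0.0537%), Wnt9a (1.15% and 0.351%), Wnt11 (3.73% and 3.87%), Bmp6 (1.604% and 1.18%) and Bmp8a (3.599% and 2.14%). Within the Wnt and Bmp families the measured promoters therefore lay at both ends of the range, and others not named here lay between.

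Genes of mature neurons had the largest share of gains among the lists with more than 10 measured members. Of the 69 genes in this list, 20 had a measured promoter. Of 20 promoters of neurotransmitter receptors, channels and neuropeptides 19 rose (95%, against 14.9% of all promoters). The median difference was 53.0 points, and Chrm4, a muscarinic receptor, was the exception. Grik3 (125167940 on chromosome 4) rose from 1.78% (SD over 63 CpGs 2.31, 3822 reads) to 76.3% (SD 11.1, 1821 reads). The adrenergic receptor genes Adrb1 and Adra2a rose from 2.17% to 67.3% and from 3.22% to 66.2%. The smallest gain of those called was that of Chrna7, a nicotinic receptor subunit, from 1.603% to 28.5%.

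**Figure D3:**
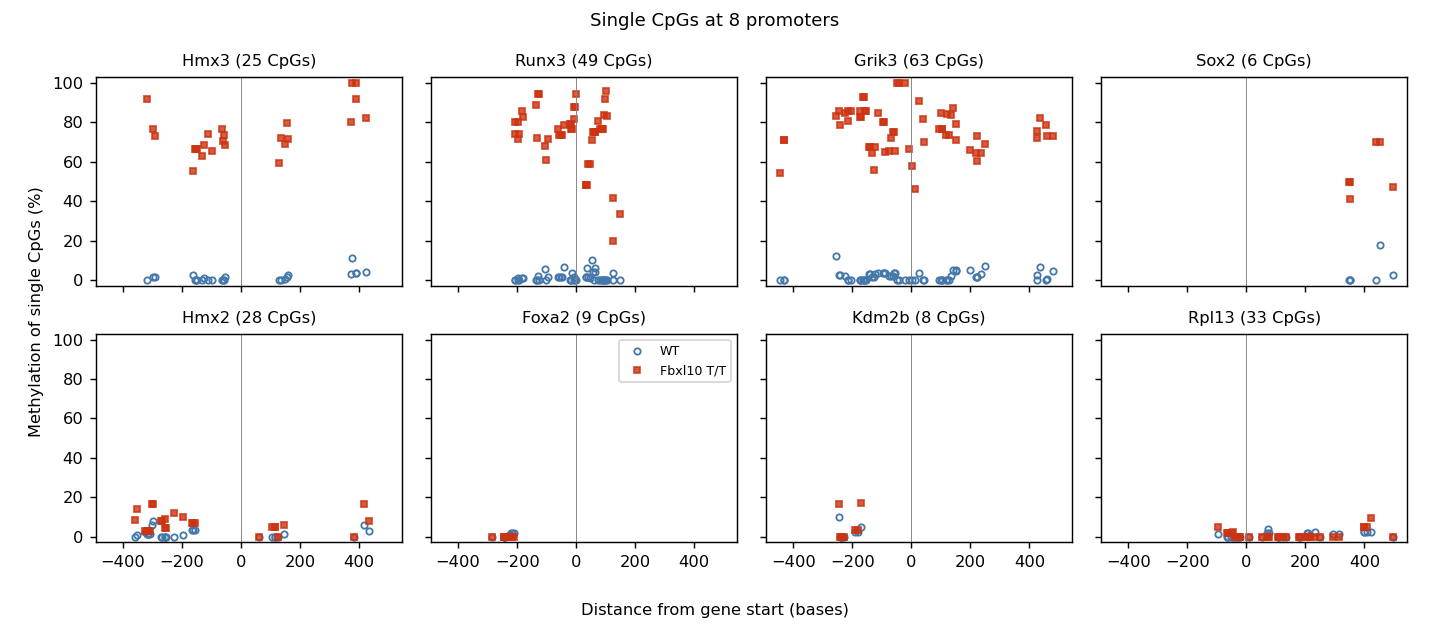
Methylation of single CpGs in percent (vertical axis) against distance from the gene start in bases (horizontal axis) at 8 promoters, open circles WT and filled squares Fbxl10 T/T. In the upper row (Hmx3, Runx3, Grik3, Sox2) the CpGs of Fbxl10 T/T stand far above those of WT, and in the lower row (Hmx2, Foxa2, Kdm2b, Rpl13) the libraries lie together below 20%.

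Of 8 measured promoters of pluripotency factors 2 rose (25%, against 14.9% of all promoters). Fgf4 rose from 2.31% to 61.6% and Sox2 from 3.38% to 54.7%. Fgf4 is a growth factor made by ES cells, and Sox2 a core pluripotency factor that also acts in neural progenitors. The Sox2 value rests on 6 CpGs past the start, with 280 WT reads and 105 Fbxl10 T/T reads (adjusted p = 3.03e-26, Fisher's exact test). Klf4 (1.09% and 0.558%), Klf2 (1.01% and 1.89%), Sall1 (0.706% and 0.838%), Tfcp2l1 (2.36% and 3.54%), Tcf7l1 (2.17% and 1.75%) and Tet2 (0.360% and 0%) did not pass the call. Promoters of Pou5f1 and Nanog were not measured.

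Of 22 measured promoters of Polycomb and FBXL10 complex genes, 3 rose (13.6%, against 14.9% of all promoters). Cbx7, which encodes a chromodomain subunit of the canonical complex 1, rose from 2.51% (SD over 15 CpGs 1.42) to 73.7% (SD 9.81), at a start inside the gene. Bcor, a scaffold of the FBXL10-containing complex 1 encoded on the X chromosome, rose from 0.870% (SD over 10 CpGs 1.83, 297 reads) to 66.0% (SD 16.0, 157 reads). Phf19, an accessory subunit of complex 2, rose from 2.25% to 61.0%. Kdm2b itself stood at 2.41% (SD over 8 CpGs 3.503, 179 reads) and 5.10% (SD 7.47, 147 reads; adjusted p = 0.355, Fisher's exact test). Rnf2, which encodes Ring1B, stood at 3.26% and 2.15% (adjusted p = 0.324, Fisher's exact test). A promoter level does not show the targeted change in Kdm2b, so it does not check the genotype label, and Eed and Ezh2 were not measured.

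Of 17 promoters of the DNA methylation machinery 1 rose (5.88%, against 14.9% of all promoters, a gap that was not tested), that of Zbtb4, a zinc finger protein that binds methylated DNA, from 1.15% to 58.2%. The WT median of this list was 0.754%, and among all promoters below 1% in WT the share that rose was 2.63%. The methyltransferase genes Dnmt1 (0.677% and 0.391%), Dnmt3a (0.830% and 0.697%) and Dnmt3b (0.677% and 0.406%) were near 0 in both libraries, at starts that lie 7265 bases inside Dnmt1 and 5421 bases inside Dnmt3a. None of 30 ribosomal protein promoters and none of 18 promoters of cell cycle and replication genes rose or fell by Fisher's exact test with the 20-point minimum. Of all promoters, 14.9% rose and 0.182% fell. The WT medians were 0.948% for the ribosomal list and 0.653% for the cell cycle list, and 2.63% of all promoters below 1% in WT rose. How far the WT level bears on these counts was not tested. The differences of the ribosomal list ran from -3.11 to 4.43 points. In the cell cycle list the largest were those of Cdk6 (0.512% and 12.9%) and Cdkn1a (1.15% and 8.54%). The measured promoters of both lists thus showed no gain of the size seen at the developmental promoters that rose.

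Germline genes, many of which are silenced by methylation outside germ cells, began higher, at a median of 49.8% in WT, and 5 of 9 rose (55.6%). Of all promoters 44.2% rose among those at 30 to 70% in WT and 62.7% among those at 10 to 30%. Smc1b, a meiotic cohesin subunit, rose from 9.14% to 69.97%, Ddx4, a germ cell RNA helicase, from 17.2% (SD over 19 CpGs 9.56) to 70.6% (SD 18.8), and Mael, a factor of the piRNA pathway, from 41.9% to 87.0%. Imprinted genes, expressed from the allele of 1 parent, rose at 7 of 12 promoters (58.3%, against 14.9% of all promoters). Grb10, an adaptor that restrains insulin signalling, rose from 3.40% (SD over 29 CpGs 4.76) to 76.7% (SD 11.6), Igf2, a fetal growth factor, from 6.44% to 66.5% at a start 8012 bases inside the gene, and Phlda2, a placental growth restrictor, from 3.33% to 60.6%. Plagl1 and Nnat, whose starts lie in regions methylated on the maternal allele, went from 35.9% to 76.3% and from 48.8% to 88.0%. Zrsr1, another maternally methylated start, stood at 31.7% and 32.2%. Gains at imprinted starts were thus not general.

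Of 8 cadherin and protocadherin promoters 4 rose (50%, against 14.9% of all promoters). Among them were Pcdh18 (2.745% to 66.9%), Fat3 (1.54% to 61.7%) and Fat4 (5.87% to 62.7%), which encode large adhesion proteins. Of 3 immune promoters, H2-Q4, a class I histocompatibility gene, rose from 11.6% to 61.8% and Irf8, an interferon regulatory factor of myeloid cells, from 4.71% to 34.3%. All 4 measured promoters of the fibroblast list, which has 25 genes, rose, against 14.9% of all promoters. They were Twist2, Col5a1, Fbn1 and Vim, at 1.46 to 4.78% in WT and 48.1 to 60.2% in Fbxl10 T/T. These are genes active in fibroblasts such as the feeder cells. Feeder cells left in either preparation, and their part in any level, were not tested.

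The 10 largest gains among all promoters ran from 74.6 to 81.5 points. Isyna1, the enzyme that makes inositol phosphate from glucose phosphate (73118380 on chromosome 8), rose from 1.34% (SD over 6 CpGs 0.843, 411 reads) to 82.8% (SD 5.81, 212 reads). Col18a1, a basement membrane collagen (76629275 on chromosome 10), rose from 1.01% (SD over 6 CpGs 1.14) to 81.6% (SD 11.8). Wdr86, which encodes a WD-repeat protein, rose from 2.07% to 80.5%, and Tril, an accessory protein of Toll-like receptors, from 3.33% to 78.8%. Zfp783 rose from 5.28% to 80.1%, and Gm40862 and Gm5144, for which no function is given here, from 1.48% to 79.7% and from 4.28% to 82.1%. The noncoding gene Gm33031 starts next to Nkx6-2 and shares its 42 CpGs and its values.

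The 13 promoters that fell all stood at 10% or more in WT. Adgrl4, an adhesion receptor of endothelium (151100846 on chromosome 3), fell from 44.9% (SD over 6 CpGs 17.6, 192 reads) to 8.73% (SD 9.79, 119 reads; adjusted p = 7.22e-11, Fisher's exact test). Zfp560, a KRAB-type zinc finger gene, fell from 35.5% (SD over 10 CpGs 7.32) to 3.23% (SD 2.38). Fgf6, a fibroblast growth factor of muscle, fell from 88.4% to 61.3%, and the overlapping noncoding genes Gm42156 and Gm36794 shared a fall from 89.3% to 55.6% over the same 6 CpGs. The promoter that lost most fell by 36.2 points, and 763 promoters rose by at least 40 points. These are not like for like, since a fall of 40 points needs a WT level of 40% or more. Of the 7152 promoters, 6833 stood below 10% in WT.

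Promoters that carried slightly more methylation in WT rose more often. Among promoters below 10% in WT, 2.63% of those below 1% rose (68 of 2589, interval 2.08 to 3.32%), 9.34% of those at 1 to 2% (192 of 2056, 8.16 to 10.7%), 23.1% of those at 2 to 5% (389 of 1684, 21.1 to 25.2%) and 46.0% of those at 5 to 10% (232 of 504, 41.7 to 50.4%). These intervals take promoters as independent, and the WT level also enters the call. The share that rose fell with CpG density, taken as CpGs observed over expected in the 300 bases of the RefSeq sequence. It was 46.3% below a ratio of 0.4 (25 of 54, 33.7 to 59.4%), 26.6% at 0.4 to 0.6, 16.1% at 0.6 to 0.8, 10.4% at 0.8 to 1 and 7.10% at 1 or more (95 of 1338, 5.84 to 8.603%). Promoters of noncoding RNA genes rose at 17.2% (140 of 813, 14.8 to 19.97%) and those of protein-coding genes at 12.3% (741 of 6019, 11.5 to 13.2%). On the X chromosome 13 of 121 rose (10.7%, 6.39 to 17.5%), an interval that includes the 12.9% of the autosomes.

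**Figure D4:**
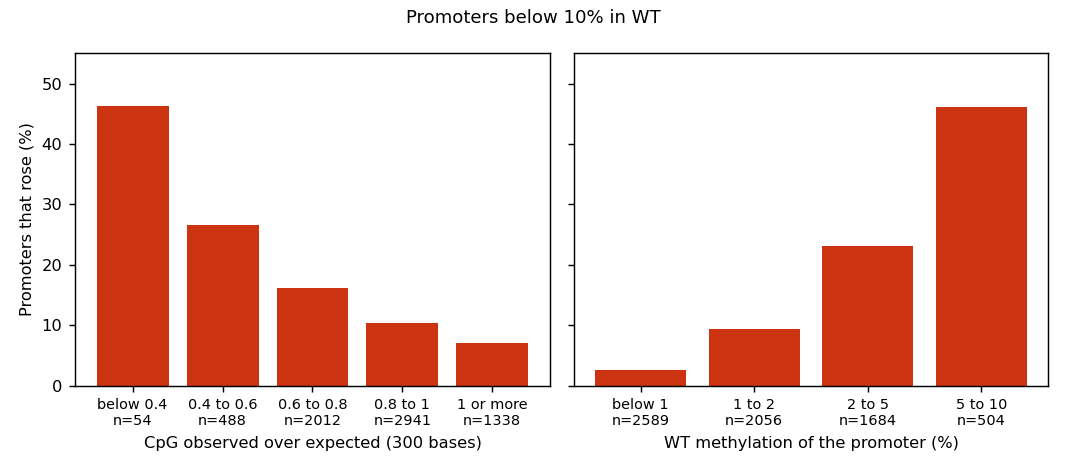
Share of promoters that rose in percent (bars from 0) among promoters below 10% in WT, by the ratio of observed to expected CpGs in 300 bases (left) and by WT methylation in percent (right), with the number of promoters under each bar. The share declines from 46.3% to 7.10% with rising CpG density and climbs from 2.63% to 46.0% with rising WT level.

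Gains reached beyond the promoter window in both directions. Around risen promoters, WT was lowest from 250 bases before to 500 bases after the start, at 4.65 to 4.82% in the 3 bins there. It stood at 9.57% from 1000 to 1250 bases and at 24.9% from 2750 to 3000 bases downstream. Fbxl10 T/T lay at 53.9% over the first 250 bases after the start and at 57.3% and 58.8% in the farther bins, so that the dip at the start seen in WT was nearly level in Fbxl10 T/T. Upstream, from 1250 to 1000 bases before the start, WT stood at 8.36% and Fbxl10 T/T at 57.3%. Promoters that were low in WT and stayed within 5 points kept the dip in both libraries, with 1.58% and 1.61% over the first 250 bases and 18.7% and 23.5% at 1750 to 2000 bases downstream. A CpG near the starts of several genes counts once for each. The values within 500 bases of a start took part in the call, and those farther out did not. Fewer promoters had CpGs there: 874 risen promoters contributed to the first bin and 36 to the last.

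**Figure D5:**
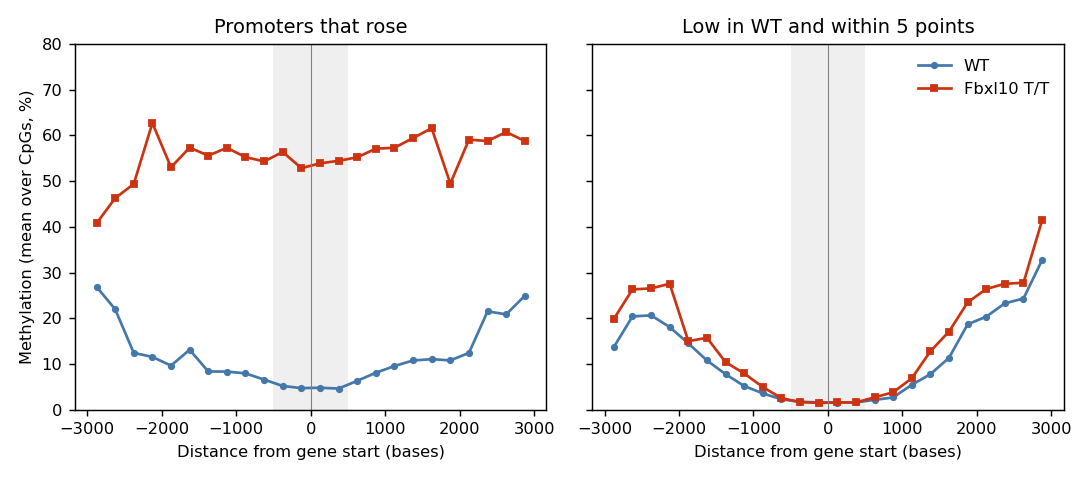
Mean methylation over CpGs in percent (vertical axis) in bins of 250 bases against distance from the gene start (horizontal axis, positive downstream), circles WT and squares Fbxl10 T/T; the grey band is the 500 bases on either side used for the call. Left, promoters that rose, where Fbxl10 T/T runs between 40.8% and 62.7%; right, promoters low in WT that stayed within 5 points, where the lines lie together at the start.

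The level that CpGs reached was also set beside their neighbouring bases. In risen 1-kb windows below 10% in WT, mean Fbxl10 T/T levels ran from 52.1% for CpGs preceded by A and followed by T (686 CpGs, SD 20.5) to 59.1% for those preceded by C and followed by A (2670 CpGs, SD 18.1). CpGs with G before and C after, 9938 in number, stood at 52.4% (SD 21.5). The differences between these classes were not tested, since CpGs of a window are not independent.

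Consecutive windows of 1000 bases cover the CpGs away from the starts found. Of 17192 windows with at least 5 CpGs, 4328 rose (25.2%) and 286 fell (1.66%), called as for promoters. The number fallen depended on the choice of CpGs: with CpGs inside CCGG kept, 6050 of 27623 windows rose and 2040 fell, and with a minimum of 3 CpGs, 5810 of 25347 rose and 1815 fell. Among windows below 10% in WT, 13.98% rose where the centre lay within 500 bases of a start found (825 of 5900), 18.2% at 500 to 2000 bases (460 of 2524), 40.2% at 2 to 10 kb (271 of 674) and 28.1% farther away (1353 of 4807). Starts that were not found in the tables count as absent here, so the last class holds windows at other gene starts too. Windows of chromosome 18, where no starts were searched, are in none of these classes. Of single CpGs, 60885 of 368305 rose (16.5%) and 16010 fell (4.35%) by 25 points or more, again with adjusted p below 0.05 in Fisher's exact test. With CpGs inside CCGG kept, 87267 of 628587 rose and 41552 fell. CpGs at 70% or more in WT went the other way from the low ones: 14582 of 52080 fell (28.0%) and 13 rose, and their mean went from 88.2% to 69.2%. The class is set by the WT level itself. Its WT median was 89.3%, which leaves less than 25 points for a rise, so many of its CpGs could not be called risen.

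Clusters of risen windows could be given gene names through the starts inside them. Each cluster, or group, was built from windows already called risen and begins and ends at such windows. Its levels are means over its risen windows only, so the counts and levels below describe the groups and are no separate result. Of all windows, 25.2% rose. Risen windows below 10% in WT, joined over gaps of at most 20 kb, made 21 groups of 5 or more, and 17 of them held a start that was found. Beside the HoxD group, with the starts of Hoxd13 to Hoxd9, these included the start of Hoxb3os in the HoxB cluster, that of Hoxa11os between Hoxa6 and Hoxa13, and that of Mir9-3hg, the host gene of the neural microRNA Mir9-3. On chromosome 4, 139377001 to 139390000, all 6 low windows around Pax7, a muscle and neural crest factor, rose from a mean of 3.25% to 58.9%. On chromosome 9, 62990001 to 62998000, all 6 around Skor1 rose from 4.65% to 68.4%, and on chromosome 7, 138685001 to 138701000, 6 of 7 around Hmx3 and Hmx2 rose from 4.37% to 69.0%. Tbx1 on chromosome 16 (5.53% to 65.4%), Lmx1b on chromosome 2 (5.02% to 64.2%), Uncx on chromosome 5 (5.00% to 60.4%), Zfp503 on chromosome 14 (3.96% to 53.5%) and Bcor on the X chromosome (4.13% to 59.1%) lay in groups of 5 risen windows each. In 4 groups no start was found: 1 of them, on chromosome 17, 36282001 to 36317000, lies between the starts of Gnl1 and Trim39, where RefSeq order places the class I genes H2-T24, H2-T23, H2-T22 and H2-T3, and its 6 windows rose from 2.79% to 58.1%.

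Of 6649 windows more than 10 kb from any start found, 2150 rose (32.3%, against 25.2% of all windows) and 229 fell (3.44%, against 1.66%). Windows of chromosome 18 are left out of the 6649. With that chromosome included, the 3 largest rises among windows with no start found near them were of 83.0 to 85.8 points. The 3 largest falls, from -70.2 to -61.3 points, were smaller. The largest rise was on chromosome 18, where no starts were searched, in a window (36177001 to 36178000) that went from 3.05% to 88.8%. A window on chromosome 5 (144014001 to 144015000), between the starts of Rnf216 and Zfp316, rose from 4.799% (SD over 10 CpGs 11.01, 904 reads) to 88.2% (SD 3.44, 382 reads). A window on chromosome 4 (146316001 to 146317000) rose from 4.77% to 87.8%, in a stretch where RefSeq order lists many zinc finger genes between Dhrs3 and Zfp982. The largest fall was on chromosome 6 (53971001 to 53972000), between the starts of Tril and Chn2, from 80.5% (SD over 6 CpGs 5.25, 153 reads) to 10.3% (SD 3.06, 140 reads). A window on chromosome 16 (91760001 to 91761000), between Gm10785 and Atp5o, fell from 82.1% (SD over 5 CpGs 14.1, 219 reads) to 17.8% (SD 13.3, 142 reads). A window on chromosome 9 (44061001 to 44062000), between Cbl and Slc37a4, fell from 83.4% to 22.1% over 7 CpGs (adjusted p = 4.52e-53, Fisher's exact test).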

How the data were processed

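Reduced representation bisulfite sequencing tables of WT and Fbxl10 T/T ES cells were compared. The submitters' processing notes name BSMAP 2.74 and mm9. How reads were trimmed or filtered, and whether duplicates were removed, is not given in the sources used here. Per the file headers, each row is 1 cytosine with deposited counts of reads showing C and showing C or T, expected counts (reads scaled for likely variants) and a fraction (C over these expected counts). Only the raw counts were used. CpGs are listed on the + strand, with both strands summed. At 7 rows the WT count stands at 65535, the largest that a 16-bit number holds. The WT table held 42999787 reads at CpGs of the autosomes and X, and 27289499 stood in that of Fbxl10 T/T. Reads over several CpGs enter more than once, so Fisher p-values and Wilson intervals, which take counts as independent, are too small and too narrow.

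RefSeq start regions were placed by anchors of 14 bases, then kept where at least 40 known bases overlapped with at most 2% mismatches on the same chromosome; no start region of chromosome 18 was used here; 9901 of 9902 had no mismatch. Where a gene had several starts, the one nearest its 5' end was taken. The annotation was used for names and gene order only, and exons and introns were not analysed here. The tests were run in Python 3.11.15 with NumPy 2.4.6 and SciPy 1.17.1 and checked on simulated data. Named genes are, per list, up to 3 largest called rises and 1 largest fall, all Hox members, the 10 largest rises and 6 largest falls, and fixed genes (Kdm2b, Rnf2, Dnmt1, Dnmt3a, Dnmt3b, Sox2; Eed, Ezh2, Dnmt3l, Tet1, Pou5f1 and Nanog were in the rule but not measured); other members are named as examples, chosen after their values were seen. The comparison, lists and rules were chosen with earlier results of these data known.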

Additional observations from a re-analysis of the deposited data

Results flagged for a closer look

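CpGs inside CCGG, the site cut by MspI, are outside the main values and showed signal above WT: 47.5% of their reads were methylated in Fbxl10 T/T (47.5 to 47.6%) and 45.3% in WT (45.32 to 45.37%), over 260282 CpGs. The mean over these CpGs went the other way, with 53.0% in Fbxl10 T/T and 54.3% in WT. In both libraries they read far above the CpGs outside CCGG, and the cause was not tested.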

How the results depend on the processing

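The counts of risen CpGs, windows and promoters kept within 1.5 times their value except where given here, and the counts of fallen ones often did not; the cause was not tested beyond what each setting does. The difference between libraries over all reads was 7.52 points, and became 7.32 at a minimum of 20 reads, 5.61 with CpGs inside CCGG kept, 6.90 without the deepest CpGs, 7.13 after thinning to 10 reads and 7.22 without possible variants. With CpGs inside CCGG kept, 41552 CpGs, 2040 windows and 34 promoters fell. At a minimum of 20 reads, 152 windows and 8 promoters fell. Thinning to 10 reads, which lowers the power at single CpGs, left 10552 risen and 1176 fallen CpGs. At a size of 10 points, 532 windows and 32 promoters fell; at 40 points, 9703 CpGs, 53 windows and 0 promoters did. With at least 3 CpGs, 1815 windows and 28 promoters fell; with at least 10 CpGs, 2434 windows rose and 10 fell, and 4 promoters fell. Risen promoters ranged from 763 (40 points) to 1217 (CCGG kept). Of 897 values of 63 named promoters under these alternatives, 887 kept their call or lack of it, 10 lost it (all at 40 points) and none was reversed. Promoters that could not be measured under a setting are left out of the 897. Measured were 44 with at least 10 CpGs, 49 at 250 bases either side, 51 at a minimum of 20 reads and 61 without possible variants, where Isyna1 had no value. Most of the 63 were named for a large difference, so a kept call is no separate result. No paired analysis was possible because there is 1 library per genotype. The depth minimum of 10 reads allows steps of 10 points at a CpG.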
